A study of Mus musculus with 6 samples.

Results

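Reads of 11 to 17 nt, shorter than a mature miRNA, were examined in small-RNA libraries of mouse bone marrow monocytes. The members were all distinct read sequences of 11 to 17 nt in the 6 read files, chosen by length alone: 92358 of 738360 distinct sequences, which held 2578647 of 34910164 reads. The monocytes came from wild type C57BL/6 mice, which carried no altered allele, and were cultured from bone marrow. The 3 treated samples received 5 pg/ml LPS, the endotoxin of Gram-negative bacteria, for 4 h, and the 3 control samples received none. The study's methods name PBS as what the controls received and RPMI as the medium, where the labels name DMEM. The labels number the samples of each group but do not say whether they came from separate mice or cultures, so p-values measure only the spread between these samples, which may be technical. In bulk libraries of this kind, fewer cells of a type and less RNA per cell cannot be told apart.

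A miRNA is cut from a hairpin precursor by Drosha and Dicer, and the mature strand is then held by an Argonaute protein, which finds targets mainly through the seed, bases 2 to 8. The 5′ leader of the hairpin, its loop and its 3′ trailer are left over and are usually degraded. Very short reads can come from such leftovers, from mature miRNAs that lost bases, from the ends of abundant structural RNAs such as rRNA and tRNA, or from the adaptors ligated during library preparation. Pieces of this length are hard to assign, because a short string of letters occurs in many transcripts.

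The 13 most frequent short reads that are described here, the 10 with the highest mean level and the most frequent at each length by mean level, fell into 6 families. Reads of a family share their first or last 11 bases, given in capitals, and differ in how far they extend on the other side. They are shown because they hold a large part of all short reads.
28S rRNA start, 17 nt: CGCGACCTCAGatcaga
5.8S rRNA end, 15 nt: tgtcTGAGCGTCGCT
5.8S rRNA end, 16 nt: ctgtcTGAGCGTCGCT
5.8S rRNA end, 17 nt: cctgtcTGAGCGTCGCT
5′ adaptor end, 14 nt: acaGTCCGACGATC
5′ adaptor end, 15 nt: tacaGTCCGACGATC
5′ adaptor end, 16 nt: ctacaGTCCGACGATC
5′ adaptor end, 17 nt: tctacaGTCCGACGATC
tRNA 3′ end, 17 nt: accgggCGGAAACACCA
28S rRNA end, 16 nt: cgacaCAAGGGTTTGT
Unnamed family, 11 nt: CGTTCCCGTGG
Unnamed family, 12 nt: aCGTTCCCGTGG
Unnamed family, 13 nt: caCGTTCCCGTGG

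The names of these families are background knowledge of the rRNA, tRNA and adaptor sequences, which were not matched to a reference here. The first family carries the first bases of 28S rRNA, the large rRNA of the ribosome's large subunit. The second carries the last bases of 5.8S rRNA, the small rRNA that pairs with it. The third carries the letters at the 3′ end of the 5′ RNA adaptor of the TruSeq small RNA kit, the kit named in the labels, and is therefore not a mouse RNA by its letters. The fourth ends in CCA, the bases added to the 3′ end of every tRNA, and its body is that of a valine tRNA. No identity is given for the sixth family.

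LPS replicate 2 stood apart from the other samples. It held 17691405 reads against 2201520 to 5148083 in the other 5, and 18.2% of its distinct short sequences were read once, against 64.2% to 71.6%. Its full-length reads differed too, with miR-146a-5p at 34235 RPM against 1868 to 3204 in the other samples. The myeloid miRNAs miR-223-3p and miR-142a-3p were present in all samples, at 3451 to 4078 and 2327 to 4791 RPM. Of 8 miRNAs of other cell types, miR-1a-3p and miR-124-3p had 0 reads in all samples, miR-122-5p, miR-133a-3p, miR-9-5p and miR-451a stayed at or below 2.27 RPM, and the epithelial miR-141-3p and miR-200c-3p reached 26.9 and 18.3, the latter in LPS replicate 2. Levels are given in RPM, the reads of a sequence or group per 1000000 reads of the file. Results are given with and without LPS replicate 2 where they rest on it.

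Short reads made up 5.14%, 7.59% and 5.83% of all reads in control replicates 1, 2 and 3, and 5.19%, 8.84% and 7.12% in LPS replicates 1, 2 and 3. The groups overlapped, with LPS replicate 1 inside the control range and LPS replicate 2 the highest. The share was 6.19% ± 1.26 (SD, n = 3) in control and 7.05% ± 1.82 (SD, n = 3) in LPS samples, a difference of 0.866 percentage points (exact two-sided permutation test, p = 0.6, adjusted p = 0.856 over 11 tests of single values). With 3 samples against 3, this test cannot give a p below 0.1. Paired by replicate number, the share was higher in the LPS sample of all 3 pairs, by 0.0571, 1.25 and 1.29 percentage points (exact sign-flip permutation p = 0.25, the smallest that 3 pairs allow). In pair 2 the adaptor-ending reads were 44.1% of the short reads of the LPS sample and 0.0715% of those of the control sample. Without LPS replicate 2 the difference between the groups was -0.0266 percentage points.

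Lengths within the range were unequally filled, with peaks at 15 and 17 nt in all samples but LPS replicate 2, where 15 nt was below 16 nt. At 17 nt there were 16504, 32558 and 18859 RPM in the control samples and 16709, 33948 and 26873 in the LPS samples. At 15 nt the levels were 13384, 18042 and 14948 RPM in the control samples and 13105, 11120 and 16268 in the LPS samples, so LPS replicate 2 was the lowest. At 16 nt LPS replicate 2 had 20449 RPM, against 7738 to 9934 in the other 5, and at 14 nt it had 10618 against 4424 to 5944. Reads of 11, 12 and 13 nt were the fewest, between 2709 and 4696 RPM in all samples. None of the lengths separated the groups beyond the spread of the samples, with exact permutation p from 0.3 to 0.9 (adjusted p from 0.856 to 0.9). Within the pairs, reads of 13, 14, 16 and 17 nt were higher in the LPS sample of all 3 (exact sign-flip permutation p = 0.25 at each length), and the other lengths were higher in 1 or 2.

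A few sequences held most of the short reads. The single most frequent sequence of a sample held 14.1% to 22.2% of its short reads, the 10 most frequent 39.3% to 61.5%, and the 100 most frequent 60.8% to 73.1%. For the 10 most frequent the values were 40.6%, 56.0% and 43.5% in the control samples and 39.3%, 61.5% and 48.1% in the LPS samples. LPS replicate 2 was the highest, control replicate 2 came next, and the groups overlapped (exact permutation p = 0.7, adjusted p = 0.856). The 10 most frequent reads of 18 to 40 nt held 36.9% to 45.1% of the reads of that length. At the other end, each sample held 17351 to 32799 distinct short sequences, with 8.52 to 10.6 reads per distinct sequence in 5 samples and 47.7 in LPS replicate 2.

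The 28S start was the most frequent short read by mean level, 9352 RPM. Its 17 nt read stood at 4125, 16834 and 5124 RPM in the control samples and 4348, 13376 and 12306 in the LPS samples. Control replicate 2 and LPS replicates 2 and 3 were high and the other 3 samples low, so that both groups held both levels. All short reads of the family took 9.01% to 22.8% of a sample's short reads, and the 17 nt read far outnumbered its neighbours, with 8.74 to 22.3 RPM at 16 nt and 141 to 239 at 18 nt. The same start extended into longer reads that were more abundant in every sample, which at 18 to 40 nt stood at 72806, 27992 and 52222 RPM in the control samples and 73500, 19346 and 42805 in the LPS samples. The samples with many 17 nt reads were those with fewer long reads of this start. The family's most frequent longer read of at most 30 nt is shown to place the 17 nt read at its front.
28S rRNA start, 29 nt: CGCGACCTCAGatcagacgtggcgacccg

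Short reads from the end of 5.8S rRNA were a ladder with a fixed 3′ end and a stepwise 5′ end. The 15 nt read stood at 7804, 12072 and 8884 RPM in the control samples and 7336, 267 and 9461 in the LPS samples. LPS replicate 2 was far below the other 5, which lay between 7336 and 12072. At 17 nt its level was 199 RPM against 4201 to 6590 in the others, and at 16 nt 45.0 against 668 to 1038. All short reads of the family took 23.6% to 27.1% of short reads in 5 samples and 0.776% in LPS replicate 2, where their level was 19.0 times below the lowest of the others. The gap did not follow length in one direction. At 12 and 13 nt it was slight, 18.8 and 23.2 RPM in LPS replicate 2 against 21.4 to 38.6 and 29.4 to 51.3, and the 18 nt step, at 835 RPM, lay within the 616 to 2011 of the others. The 19 nt step was at 268 RPM in LPS replicate 2 against 2889 to 4297, and the 23 nt step at 2.37 against 14.2 to 35.2. The 26 nt step was at 260 against 245 to 305 and the 33 nt step at 222 against 176 to 221, so there the sample was level with the others. It was low again at 39 nt, at 2.94 RPM against 9.28 to 23.2. The 19 nt step is shown for comparison with the short ones.
5.8S rRNA end, 19 nt: cgcctgtcTGAGCGTCGCT

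The adaptor-ending family had the opposite pattern. Its 16 nt read stood at 21.1, 17.8 and 156 RPM in the control samples and 333, 13170 and 201 in the LPS samples. The 17 nt read stood at 14.4, 19.1 and 162 in the control samples and 246, 11309 and 189 in the LPS samples, all in RPM. LPS replicate 2 was far above all others, and LPS replicates 1 and 3 were also above the 3 control samples in both reads. At 14 nt LPS replicate 1, at 91.1 RPM, lay below control replicate 3, at 101. Summed over 151 short sequences with this 3′ end, the levels were 53.8, 54.2 and 501 RPM in the control samples and 864, 39019 and 615 in the LPS samples. LPS replicate 2 was thus 45.2 times above the highest of the others. The family took 44.1% of its short reads and 0.0715% to 1.66% of those of the other samples. It did not stop at 17 nt. In LPS replicate 2 the steps of 20, 21, 22 and 23 nt held 15974, 11370, 7629 and 7600 RPM, and the 24 nt step held 541.
5′ adaptor end, 20 nt: agttctacaGTCCGACGATC

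The lengths at which LPS replicate 2 was high were those of the adaptor-ending family. Without the reads that share the adaptor-like 3′ end, an alternative chosen after seeing the data, its 16 nt reads were at 7095 RPM against 7716 to 9731 in the others. Its 14 nt reads were then at 3875 against 4418 to 5831, and its 15 nt reads at 6158 against 12950 to 18034. With the adaptor-ending reads also left out of the total, the difference between the groups in the share of short reads was -0.290 percentage points (exact permutation p = 0.6).

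The tRNA end and the 28S end differed less between samples. The 17 nt tRNA read stood at 905, 1616 and 1115 RPM in the control samples and 790, 1149 and 1200 in the LPS samples, with LPS replicate 2 inside the control range. Longer reads with this end, of 18 to 40 nt, came to 377 to 759 RPM in the 5 samples other than LPS replicate 2 and to 557 in that sample. More generally, 4.72% to 6.21% of short reads ended in CCA, against 1.12% to 1.39% of reads of 18 to 40 nt. The 16 nt read at the end of 28S rRNA stood at 850, 624 and 800 RPM in the control samples and 820, 603 and 877 in the LPS samples. Within that family the 16 nt step in LPS replicate 2 was near the others, while the 11 nt step was at 44.0 RPM against 184 to 287, and the 33 nt step at 62.3 against 467 to 739.
tRNA 3′ end, 18 nt: aaccgggCGGAAACACCA
28S rRNA end, 19 nt: cctcgacaCAAGGGTTTGT

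By mean level over the samples, the unnamed family supplied the most frequent reads of 11, 12 and 13 nt. In LPS replicate 2 the adaptor-ending reads outnumbered it at 11 nt, 836 against 26.3 RPM, and at 13 nt, 1386 against 10.7. At 11 nt it stood at 594, 1292 and 643 RPM in the control samples and 519, 26.3 and 868 in the LPS samples, and at 13 nt at 152, 531 and 394 in the control samples and 207, 10.7 and 553 in the LPS samples. LPS replicate 2 was again below all others, with 0.661% of its short reads in this family against 3.55% to 6.75%. The 15 nt step was an exception, at 315 RPM in LPS replicate 2 against 219 to 921 in the others, while the 16 nt step was at 187 against 301 to 997. Longer reads with this end were scarce, 119 to 285 RPM at 18 to 40 nt in 5 samples and 10.8 in LPS replicate 2.
Unnamed family, 21 nt: aattccaccaCGTTCCCGTGG

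Short reads were richer in G and C than longer ones. They held 59.3%, 60.6% and 60.2% G or C in the control samples and 59.7%, 58.2% and 60.3% in the LPS samples, where reads of 18 to 40 nt held 47.0% to 48.7%. The GC content of short reads was 60.0% ± 0.691 (SD, n = 3) in control and 59.4% ± 1.10 (SD, n = 3) in LPS samples, with overlapping groups (exact permutation p = 0.6, adjusted p = 0.856). C was the most frequent first base, in 41.5% to 51.9% of short reads, where U, written T, was the most frequent in longer reads, at 45.1% to 52.1%. The last base was T in 42.4%, 37.8% and 41.4% of short reads in the control samples and in 40.7%, 9.20% and 36.5% in the LPS samples. LPS replicate 2 had C there instead, in 58.2% of its short reads against 15.9% to 24.1% in the others. Without the adaptor-ending reads T was still the last base of 16.5% of its short reads, against 36.9% to 42.4%. C was then the last base of 25.1% of them, against 15.8% to 22.8%, and A of 40.8%, against 20.2% to 32.8%. Reads of 18 to 40 nt ended in T in 45.8% to 49.9% in all 6 samples.

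Few short reads matched the start of a read assigned to a miRNA hairpin. Reads of 18 nt or more were assigned to 974 arms of 1174 GENCODE hairpins by exact match with up to 3 free bases at the 3′ end, which took in 61.6% to 71.0% of all reads. Short reads equal to the first bases of such a read made up 0.786%, 0.580% and 0.748% of short reads in the control samples and 0.870%, 0.515% and 0.607% in the LPS samples. The groups overlapped, with LPS replicate 1 the highest and LPS replicate 2 the lowest, at means of 0.705% ± 0.110 (SD, n = 3) and 0.664% ± 0.184 (SD, n = 3) and an exact permutation p of 0.9 (adjusted p = 0.9). Matches to the end of an assigned read but to no start took 0.306% to 0.706%, and matches only to its interior took 0.0207% to 0.0430%. At 15 to 17 nt alone, starts took 0.608% to 1.05% and ends 0.219% to 0.403% of those short reads, with starts above ends in every sample. Between 98.4% and 99.1% of short reads matched no part of an assigned miRNA read.

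The match share differed with length, from 0.145% to 0.295% at 11 nt, 0.110% to 0.285% at 13 nt and 0.768% to 2.03% at 16 nt. A chance match is more likely in shorter reads: the 2627 distinct starts of 11 nt filled 0.0626% of all possible sequences of that length, and the 2727 starts of 16 nt filled 6.35e-05%. At 16 nt the share was 1.57% to 2.03% in 5 samples and 0.768% in LPS replicate 2, whose 16 nt reads are mostly adaptor-ending.

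The most frequent short starts came from miR-30d-5p, miR-27b-3p, miR-223-3p and let-7, and are shown with the part of the seed they keep in capitals where the mature sequence could be matched. The first is printed in lower case, without a mature sequence beside it.
miR-30d-5p start, 16 nt: tgtaaacatccccgac
miR-27a-3p and miR-27b-3p start, 17 nt: tTCACAGTggctaagtt
miR-27b-3p from base 5, 16 nt: CAGTggctaagttctg
miR-223-3p start, 17 nt: tGTCAGTTtgtcaaata
miR-223-3p from base 2, 17 nt: GTCAGTTtgtcaaatac
let-7a and let-7c start, 17 nt: tGAGGTAGtaggttgta
The mature sequences from RefSeq (GRCm38.p6), written with U, follow with the seed in capitals.
miR-27b-3p: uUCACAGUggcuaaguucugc
miR-27a-3p: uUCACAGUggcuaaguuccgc
miR-223-3p: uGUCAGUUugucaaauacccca

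The miR-30d-5p start ranked 108 among all short reads, at 30.4, 34.0 and 38.9 RPM in the control samples and 42.5, 38.9 and 44.5 in the LPS samples. Mir30d is at positions 68341208 to 68341289 of chromosome 15 in GRCm38, minus strand, and overlaps exons of the non-coding gene models Gm20732 and Gm37296. miR-27b-3p gave pieces from several positions. The 16 nt piece from base 5, which lacks part of the seed, stood at 34.8, 36.0 and 40.6 RPM in the control samples and 44.9, 27.4 and 38.2 in the LPS samples. LPS replicates 1 and 2 were the highest and lowest of all. The true 17 nt start, shared by miR-27a-3p and miR-27b-3p, stood at 13.9, 27.3 and 15.7 in the control samples and 13.4, 22.7 and 18.6 in the LPS samples, in RPM. Mir27b is at positions 63300712 to 63300784 of chromosome 13, plus strand, and overlaps an exon of the protein-coding gene 2010111I01Rik on that strand. The 17 nt start of miR-223-3p, a miRNA of myeloid cells, stood at 7.47, 10.3 and 6.997 RPM in the control samples and 5.44, 18.2 and 7.72 in the LPS samples. A 17 nt read assigned to Mir3963, at 14.2 to 30.2 RPM, ends in CCA like a tRNA, so its miRNA origin is uncertain.

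Short starts were rare beside the arm's reads of 18 nt or more, called full-length here. A start is that of any assigned read, so pieces that begin inside the mature miRNA are counted too. Counting reads of 15 to 17 nt that equal the start of reads of one arm only, miR-223-3p had 5.64, 5.89 and 3.96 short starts per 1000 full-length reads in the control samples and 4.17, 8.21 and 4.50 in the LPS samples. miR-29a-3p, a regulator of collagen genes, had 2.69, 3.66 and 3.20 in the control samples and 4.02, 2.25 and 3.89 in the LPS samples. For both miRNAs the groups overlapped. The let-7 family, of 8 arms, had 0.713 to 0.991 in the control samples and 0.676 to 0.928 in the LPS samples. At the low end miR-22-3p, one of the most abundant miRNAs here with 299774 to 2094853 full-length reads, had 0.0238, 0.0178 and 0.0191 per 1000 in the control samples and 0.0160, 0.0153 and 0.00667 in the LPS samples, from 2 to 32 short reads a sample. Its LPS samples all lay below its control samples, which gives the smallest p of the design (exact permutation p = 0.1). miR-142a-5p, a miRNA of blood cells, lay the other way, at 0.462, 0.496 and 0.404 in the control samples and 0.504, 0.859 and 0.659 in the LPS samples (exact permutation p = 0.1). For the other 11 of 13 listed entries the exact permutation p was 0.2 to 1.

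miR-155-5p, a miRNA induced by LPS in macrophages, had 0 short starts in all 6 samples. Its full-length reads were few, 98 to 2319 a sample, so a count of 0 allows up to 1.29 short starts per 1000 in LPS replicate 2 and 13.0 to 30.6 in the other samples, for counting error only. miR-146a-5p had 1 unique short start in LPS replicate 1 and 0 in the others, but this entry says little, because it shares its first 17 bases with miR-146b-5p. The mature sequences are shown for that reason.
miR-146a-5p: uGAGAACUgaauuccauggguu
miR-146b-5p: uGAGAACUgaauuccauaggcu
Counted together, both had 0.373, 0.725 and 1.23 short starts per 1000 in the control samples and 0.828, 0.393 and 0.742 in the LPS samples. Full-length miR-146a-5p reads were far more frequent in LPS replicate 2, while its ratio of short starts was within the control range. miR-24-3p had 0 to 4 short starts in the samples other than LPS replicate 2, too few to compare, and 48 among 627308 full-length reads in LPS replicate 2.

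Some short reads lay in miRNA hairpins. Among reads of 15 to 17 nt, 840 sequences matched 172 hairpins that contain a RefSeq mature miRNA, at 466 to 561 RPM in all. Most of this level came from reads that begin with, end with or lie inside a mature miRNA, and leaders and loops that end or begin exactly at a mature strand made up 53 of the 840 sequences. By level they held more: leaders took 16.5% to 23.4% of it in a sample. Loops ending at a 3p strand took 1.94% to 6.15%, those filling the gap 1.83% to 4.68% and those starting at a 5p end 0.0762% to 0.327%. The most frequent leader and loops are shown to let their ends be compared with the mature sequences beside them.
Mir21a leader, 17 nt: tgtaccaccttgtcgga
miR-21a-5p: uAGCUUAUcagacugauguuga
Mir15b loop, 16 nt: tactacagtcaagatg
miR-15b-5p: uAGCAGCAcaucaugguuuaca
miR-15b-3p: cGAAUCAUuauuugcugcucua
Mir222 loop, 17 nt: tgtctttggtaatcagc
miR-222-3p: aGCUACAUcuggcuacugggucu

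The leader of Mir21a was the most frequent short read from any hairpin, at 93.5, 86.5 and 94.9 RPM in the control samples and 118, 92.9 and 115 in the LPS samples. LPS replicates 1 and 3 lay above the control samples and LPS replicate 2 within them. It spans bases 1 to 17 of the 92 nt hairpin and ends where miR-21a-5p begins, at base 18, the place where Drosha cuts the 5p strand free. Mir21a is at positions 86584067 to 86584158 of chromosome 11 in GRCm38, minus strand, and overlaps an exon of Vmp1. Leaders of this kind from all 11 hairpins that gave one came to 89.4 to 124 RPM, so that nearly all were from Mir21a. The next, from Mir326, was at 0 to 1.40. Only hairpins annotated with at least 15 bases before the 5p strand could give a leader. In Mir27b, for example, miR-27b-5p begins at base 7, so these levels do not compare all hairpins.

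Loops were less frequent. A read of 15 to 17 nt could fill the whole gap only in hairpins whose gap has that length. The Mir15b loop, bases 26 to 41 of 64, fills the whole gap between the 5p and 3p strands and stood at 8.50, 16.2 and 9.80 RPM in the control samples and 5.44, 10.8 and 10.5 in the LPS samples. LPS replicate 1 was the lowest and control replicate 2 the highest. The Mir222 loop, bases 32 to 48 of 79, ends where miR-222-3p begins and stood at 4.38, 10.4 and 12.6 in the control samples and 6.41, 21.4 and 18.2 in the LPS samples, in RPM. LPS replicates 2 and 3 were above the control samples and LPS replicate 1 was within them. Mir15b is at positions 69009772 to 69009835 of chromosome 3, plus strand, in an intron of Smc4. Mir222 is at positions 19146893 to 19146971 of chromosome X, minus strand, outside annotated genes. All loops that fill the gap came to 9.71 to 24.4 RPM from 16 hairpins, and all other loops that end at a 3p strand to 9.02 to 30.1 from 13 hairpins. Reads that begin with a mature miRNA came to 103 to 148, those that end with one to 61.4 to 124 and those inside one to 77.4 to 147 RPM.

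The groups were also compared sequence by sequence. Of the 92358 short sequences 1378 passed the filter on low counts, and these held 79.6% to 86.9% of the short reads of each sample. edgeR's quasi-likelihood test on all 9410 sequences of any length that passed called 0 at an adjusted p under 0.05 (0% of those tested), and 0 short ones. DESeq2 called 0 short sequences as well. It gave no adjusted p for the adaptor-ending reads of 11, 13, 14, 15, 16 and 17 nt, so its 0 does not cover them. At an unadjusted p under 0.05 in edgeR, 15 short sequences were higher with LPS and 1 was lower, which is 1.09% and 0.0726% of those tested, where over all sequences 1.08% were higher and 0.202% lower. The short sequences' share of higher ones was thus near that of all sequences. Without LPS replicate 2 the counts were 6 higher and 4 lower of 1587 short sequences tested, 0.378% and 0.252%, where over all sequences 0.453% were higher and 0.148% lower. Without LPS replicate 1 they were 74 higher and 12 lower. The share over all sequences is not given for that setting, so these counts cannot be set against it. In the fit of all samples the median log2 fold change of the short sequences tested was 0.01, and 0.00 over all sequences.

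The 5 short reads with the smallest p among the higher ones all had the adaptor-like end, as did 6 of the 15. The strongest were the 15 nt read, with a log2 fold change of 6.47 (SE 2.00, adjusted p = 0.9995 in edgeR), and the 11 nt read, with 0, 0 and 9 reads in the control samples and 29, 14793 and 15 in the LPS samples. The 13 nt read stood at 0.773, 0.828 and 15.7 RPM in the control samples and 20.8, 1386 and 22.7 in the LPS samples. In these reads every LPS sample was above every control sample, with LPS replicate 2 far above the rest. Without that sample the log2 fold change of the 16 nt read was 1.97, against 6.48 with it.
5′ adaptor end, 11 nt: GTCCGACGATC
5′ adaptor end, 13 nt: caGTCCGACGATC
The other 9 higher reads had log2 fold changes from 1.10 to 2.04, and 7 of them were highest in LPS replicate 2.

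Lower with LPS at the smallest p was a 17 nt read of unknown origin at 3.87, 7.45 and 2.80 RPM in the control samples and 2.14, 1.24 and 1.36 in the LPS samples. Its log2 fold change was -1.45 (SE 0.54, adjusted p = 0.9995 in edgeR). All LPS samples were below all control samples, on 3 to 22 reads each. The next 4 had log2 fold changes of -0.77 to -1.41 with unadjusted edgeR p from 0.0702 to 0.0952.
Lowest p among lower reads, 17 nt: gtcccccgcgtcgtcgc
Of the named families, the 5.8S reads had log2 fold changes of -0.80 at 15 nt and -0.75 at 17 nt and the 28S start 0.34. None passed the threshold with the filter on low counts (edgeR adjusted p = 0.9995 for each). Without LPS replicate 2 these were -0.26, -0.22 and -0.14. Without the filter on low counts, edgeR called 96 short sequences higher and 2 lower at an adjusted p under 0.05, together 0.106% of the 92358 short sequences, where 361 of all 738360 sequences were called (0.0489%). The 2 lower were the 5.8S reads of 15 and 17 nt (edgeR adjusted p = 1.04e-08 and 0.000143). At 15 nt LPS replicate 2 was at 267 RPM against 7336 to 12072 in the others. The adaptor-ending reads named above were among the higher. The unfiltered fit was not run without LPS replicate 2.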

How the data were processed

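Small RNA of 6 samples was sequenced with a TruSeq small RNA kit on a HiSeq 1000. The authors trimmed adaptors with perl scripts and Btrim64 and deposited, for each sample, raw read counts of each distinct trimmed sequence of 11 to 40 nt, without mapping. The labels name the mm9 build, which was not used here. No column of another series was present.

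Counts were summed by length and given as RPM. Reads of 18 nt or more were matched to GENCODE M21 hairpins (GRCm38), and short reads were compared with the assigned reads of all files together. Mature sequences were taken from RefSeq (GRCm38.p6), and 1007 of 1174 hairpins contained one. Single values were compared by exact two-sided permutation tests with Benjamini-Hochberg adjustment over 11 tests, and listed arms by the same test without adjustment. Sequences were tested with edgeR 4.0.16 (R 4.3.3; TMM, filterByExpr, quasi-likelihood, Benjamini-Hochberg, threshold 0.05) and DESeq2 1.42.0. Standard errors were derived from the log2 fold changes and F. On simulated counts of dispersion 0.1, below the 0.313 estimated from the real libraries, 143 of 157 tested sequences with a log2 fold change of 2 were recovered and 12 unchanged ones were called among 8094 tested.

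The named reads were the 10 with the highest mean level, the most frequent at each length and the 5 with the smallest p in each direction. Members, lists and tests were chosen with earlier results of these data known. Whether the replicate numbers in the labels pair the samples is clear from the data for pair 1 only. Deviations of short sequences from the group means correlated at 0.641, 0.219 and 0.209 within pairs 1, 2 and 3 and at -0.389 to 0.154 across pairs. Pairs 2 and 3 were thus little above the highest value across pairs. Deviations from a mean of 3 samples are not independent. Libraries of 2201520 to 17691405 reads set the precision, and shares rest on 156846 to 1563450 short reads a sample. PCR reads without molecular identifiers are not independent molecules, so limits from a count of 0 cover counting error only. Alternatives were other lengths, weights, match rules and normalizations, no filter, the replicate block and each sample left out.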

Additional observations from a re-analysis of the deposited data

Results flagged for a closer look

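Reads of 18 to 40 nt lie outside the length range studied, but the adaptor-like 3′ end of the short reads occurred in them too. They reached 54617 RPM in LPS replicate 2, from 966253 reads, against 54.1, 79.5 and 778 in control replicates 1, 2 and 3 and 831 and 921 in LPS replicates 1 and 3. The level in LPS replicate 2 was noted because these reads lie outside the length range studied, and it lay above that of every other sample. The part of these reads in other results was not tested. Groups of 3 samples are too small for the test of single samples that stand apart.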

How the results depend on the processing

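No single value passed the threshold under any alternative, and the exact permutation p stayed at or above 0.1, the smallest possible for 3 samples against 3 (0.25 for pairs). With the replicate block the mean difference of each single value is the same by construction, 0.866 percentage points for the share of short reads, and its exact permutation p was 0.25 in place of 0.6. No call changed with the block, and edgeR then called 0 short sequences in either direction. Without the filter on low counts edgeR called 96 short sequences higher and 2 lower (361 of all 738360 sequences were called). The 2 lower were 5.8S reads, which were low in LPS replicate 2. Under every other alternative 0 were called in each direction, where DESeq2 gave no adjusted p for the named adaptor-ending reads. Values below are LPS minus control where the direction turned, and the cause was not tested. Without the reads that share the adaptor-like 3′ end, chosen after seeing the data, the difference was -0.290 percentage points in the share of short reads, -240.5, -289 and -727 RPM at 14, 16 and 17 nt, -5.03 points in the share of the 10 most frequent reads, 0.0993 points in the share of miRNA starts and 0.174 points in GC. The RPM values of this alternative kept the adaptor-ending reads in the total, while its shares left them out. The share of miRNA starts differed by 0.0288 points with assigned reads of the same file and by 0.00244 with the most frequent read of each arm. GC differed by 0.714 points with each distinct sequence counted once and by 0.621 without the 10 most frequent reads. With 1 sample left out, the range was -0.0266 to 1.80 points for the share of short reads, -849 to 8162 RPM at 17 nt, -2.999 to 8.07 points for the 10 most frequent reads and -0.143 to 0.0339 points for miRNA starts, and the end with the turned direction was that without LPS replicate 2 in each of these. Short starts per 1000 full-length reads ranged from -0.362 to 0.163 for miR-24-3p, -0.111 to 0.771 for miR-29a-3p, -0.831 to 1.19 for miR-223-3p and -0.150 to 0.0412 for miR-142a-3p, which was 0.0290 with starts of 11 to 17 nt. Log2 fold changes ranged from -0.14 to 1.28 for the 28S start, -0.35 to 0.17 for the tRNA read, -0.98 to 0.055 for the 16 nt 5.8S read, -0.027 to 0.18 for the 16 nt 28S end and -1.80 to 0.011 for the 13 nt unnamed read. When pair 2 was dropped from the blocked fit, also chosen after seeing the data, they were 0.22 for the 16 nt 5.8S read and 0.093, 0.16 and 0.44 for the unnamed reads of 11, 12 and 13 nt. Depth limits the rare short starts, with 0 to 4 reads for miR-24-3p in 5 samples.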

Other observations

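Nearly all short reads of 15 to 17 nt share an end with some longer read of these libraries. Between 86.9% and 92.9% of them equal both the start of one read of 18 nt or more and the end of another in the pooled files, 1.23% to 2.14% a start only, 3.62% to 7.68% an end only and 2.26% to 3.44% neither. These longer reads include sequences read once, so the shares describe the pooled files and depend on their depth.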
